A study of Mus musculus with 3 samples.

Results

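Gata4, Gata6, Sox17, Sox7, Foxa2 and Hnf4a, 6 transcription factor genes that direct endoderm formation, were examined among the 21938 protein-coding genes of the mouse annotation (GENCODE M21, GRCm38). They were chosen by name, and every CCGG site inside a gene or within 10 kb of it was taken, which gave 368 of the 1026118 CCGG sites listed in at least 1 sample. Undifferentiated E14Tg2A cells, an established line of mouse embryonic stem cells (ESCs) cultured with leukemia inhibitory factor (LIF), formed the day 0 sample. The untreated sample was collected on day 7 after LIF was withdrawn and retinoic acid was added. The treated sample was differentiated for the same 7 days, also without LIF and with retinoic acid, in the presence of 3 mM pargyline, an inhibitor of the histone demethylase LSD1. The study states that this treatment preceded the induction of differentiation by 6 h. The day is that of the study's methods, since the labels give only the differentiated state, and a tag in the names of both differentiated lists that could be read as another day is not explained in the sources used here. There was 1 library per condition, all from 1 cell line, so no difference could be set against a spread between replicates and no test was made.

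GATA4 and GATA6 are zinc finger factors that drive primitive endoderm and later act in heart, gut and liver. SOX17 and SOX7 are closely related HMG box proteins of the SOXF group, of which SOX17 is required for definitive endoderm and SOX7 is prominent in parietal endoderm. FOXA2 is a forkhead pioneer factor that opens chromatin in endoderm and floor plate, and HNF4A is a nuclear receptor that maintains hepatocyte and visceral endoderm identity. Developmental regulators of this kind often start transcription in CpG-rich DNA, which is largely unmethylated in ESCs, and methylation gained there is typically linked to stable silencing.

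MethylRAD sequences short fragments that FspEI, an enzyme that cuts beside methylated cytosine, releases around a methylated site, so the read number at a CCGG site rises with its methylation. The lists contain sites with at least 5 reads, and a site that is absent from a list had between 0 and 4 reads. The 6 genes had 252 listed CCGG sites in undifferentiated, 288 in untreated and 327 in treated cells. CCGG reads totalled 31614085, 36654600 and 25767119 in the same order, which was 62.0%, 49.7% and 38.3% of the mapped reads. Ratios between samples are ratios of reads per 1000000 CCGG reads of each list (scaled reads), with exact 95% intervals that cover counting error only. The names of the lists say that they hold no duplicates, but the sources used here do not say whether this means PCR copies of a fragment or repeated entries of a site, and copies left in would make the intervals too narrow. In DNA from bulk cells, methylation in more cells and more methylation per cell cannot be told apart. The lists hold no RNA, so the labelled states could not be checked against marker expression.

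The sites that carry the main differences are shown with the 30 bases around each, with the CCGG motif in capitals. The sequences are from GRCm38, read 5′ to 3′ on the plus strand. The first 5 lie at or upstream of a promoter and had more reads in treated than in undifferentiated cells.

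Sox17 intron site, chr1:4496054-4496083: ttagaaagaaagcCCGGggatggggaggca

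Sox7 intron site, chr14:63944106-63944135: ggccacggtgaaaCCGGtgaaaccagtgaa

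Foxa2 upstream site, chr2:148047516-148047545: gtggagggtcttgCCGGcgtttttatgtgg

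Foxa2 distal upstream site, chr2:148049927-148049956: tgtttgagaaatcCCGGgggtccagagtaa

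Gata4 upstream site, chr14:63272594-63272623: aataaacatattgCCGGcatactttaatgc

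The next 5 differed by at least 2-fold between undifferentiated cells and both day 7 samples, and all but the Gata4 site gained at chr14:63209937-63209966 had fewer reads on day 7.

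Gata4 promoter intron site, chr14:63270421-63270450: aatgtgtcctgcaCCGGtacaagggaatct

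Gata4 gained intron site, chr14:63209937-63209966: ccacccccaccccCCGGgcaagtgctgaac

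Sox17 distal upstream site, chr1:4503891-4503920: ctgtgatcatctcCCGGccacaccatcttt

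Sox7 downstream site, chr14:63960471-63960500: tgcaaacagtgctCCGGttgtccacatctg

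Hnf4a intron site, chr2:163568239-163568268: gaggggagatgtcCCGGgtgttgcttagct

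The last one is the Hnf4a promoter site with the most scaled reads summed over the samples, where the ratios of both day 7 samples to undifferentiated cells stayed under 2.

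Hnf4a promoter site, chr2:163507014-163507043: ggagacggctggaCCGGgtaggaccacggt

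Across the 6 genes, pargyline-treated cells had more methylated CCGG reads in promoters than either other sample, while gene bodies and flanks differed by less. Promoters reached 1 kb up- and downstream of every annotated start, bodies were the rest of the genes, and flanks the rest of the surrounding 10 kb. The promoters had 865 reads in undifferentiated, 1097 in untreated and 1253 in treated cells, which is 27.4, 29.9 and 48.6 reads per 1000000 CCGG reads. Treated cells were thus 1.78-fold higher than undifferentiated cells (1.63 to 1.94) and 1.63-fold higher than untreated cells (1.50 to 1.76), and untreated cells were 1.09-fold higher than undifferentiated cells (0.9996 to 1.20). In gene bodies, the ratios were 1.07 for treated over undifferentiated cells, 1.06 for treated over untreated cells and 1.004 for untreated over undifferentiated cells. The corresponding values in the flanks were 1.11, 1.16 and 0.961. When every unlisted site was set to 4 reads, the most it can have had, the promoter ratio of treated over undifferentiated cells was 1.51. Over all protein-coding genes compared, the median promoter ratio was 1.16, or 1.13 with unlisted sites at 4 reads. By gene, the promoter ratio was 1.02 at Gata4, 1.14 at Hnf4a and at least 3.10 at the other genes.

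**Figure D1:**
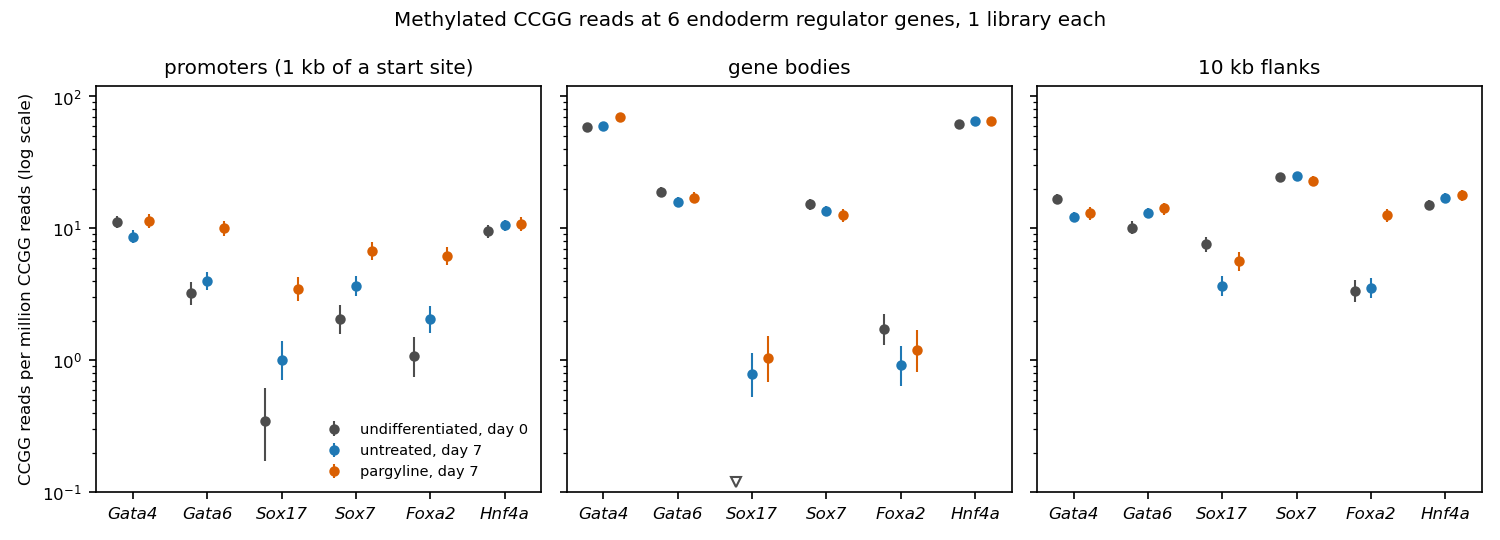
CCGG reads per 1000000 CCGG reads of each list (log scale) in the promoters, bodies and flanks of the 6 genes, with 1 point per library and exact 95% Poisson intervals for counting error. The open triangle marks the Sox17 body in undifferentiated cells, where no site was listed. The treated point is the highest of the 3 in the promoters of all 6 genes, in the bodies of Gata4 and Sox17 and in the flanks of Gata6, Foxa2 and Hnf4a, with intervals clear of both other samples in the promoters of Gata6, Sox17, Sox7 and Foxa2, the body of Gata4 and the flank of Foxa2.

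These ratios depend on what the reads are scaled to. With the deposited RPM values, which are scaled to all mapped reads, every ratio of treated to undifferentiated cells is multiplied by 0.618, a shift of -0.69 on the log2 scale for all genes alike, and every ratio of treated to untreated cells by 0.771. The summed promoter ratios then became 1.10 for treated over undifferentiated cells, 1.25 for treated over untreated cells and 0.877 for untreated over undifferentiated cells. The gene bodies then fell to 0.660 of the undifferentiated value in treated cells. The order of a gene among all genes in 1 comparison is the same under both scalings.

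The promoters of Sox17, Foxa2 and Sox7 and the flank of Foxa2 were called higher in treated cells, and the flank of Sox17 was called lower in untreated cells. A promoter, body or flank was called higher or lower when its ratio passed 2-fold both with unlisted sites at 0 and with unlisted sites at 4 reads, and it needed at least 20 reads in at least 1 of the compared lists. Treated over undifferentiated cells, 3 of the 6 promoters were higher and 0 were lower, where 14.5% of 14993 promoters of all protein-coding genes were higher and 4.84% were lower. For treated over untreated cells, 2 promoters, those of Sox17 and Foxa2, were higher, against 8.17% of all promoters, and 0 were lower, against 1.2%. For untreated over undifferentiated cells, 0 of the 6 were called in either direction, against 5.54% higher and 5.66% lower among all promoters. Sox17, with 11 undifferentiated reads, reached the minimum only through the treated list. Of the 5 promoters with at least 20 reads in undifferentiated cells themselves, a rule added after the data had been seen, 2 were higher, where 6.54% of 13204 such promoters were. The treated and the undifferentiated list each enter a pair of these comparisons, so the counts are not independent. With RPM values, none of the treated calls was left, as the ratios with unlisted sites at 4 reads became 1.75 for Sox17, 1.72 for Foxa2 and 1.63 for Sox7, and 3.402% of all promoters were then called higher. Without the sites above 10000 reads in the scaling, and with the median ratio at CCGG sites listed in all 3 lists as the scaling, the same 3 promoters were called, and the median ratio also called the Gata6 promoter higher in treated than in untreated cells.

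**Figure D2:**
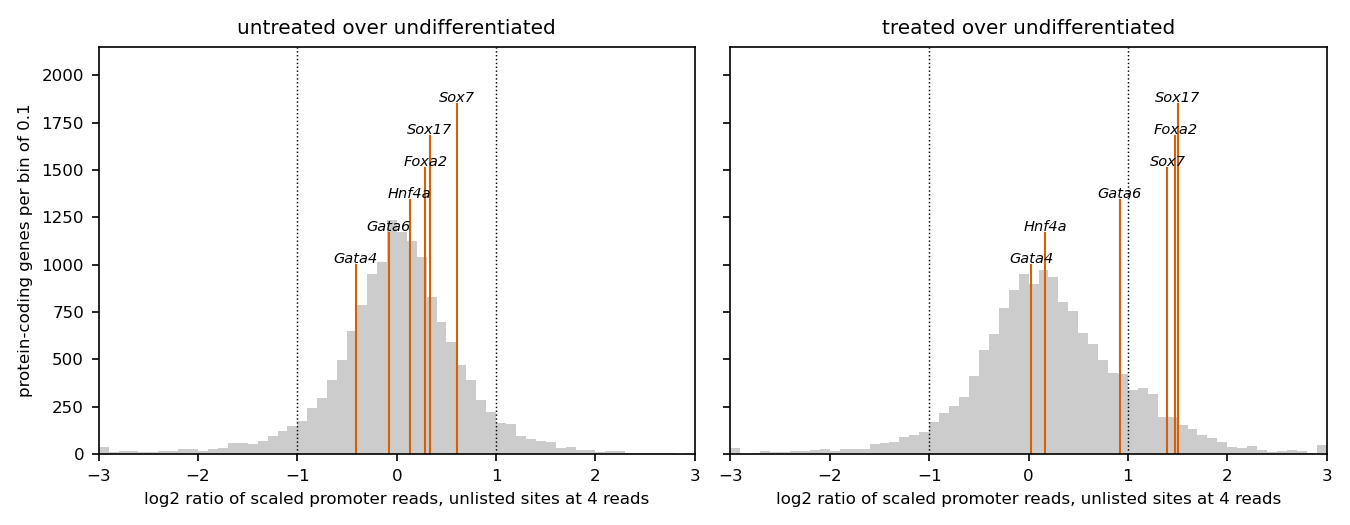
Distribution of the log2 ratio of scaled promoter reads over protein-coding genes (grey bars, number of genes per bin of 0.1 log2 units), with the 6 genes as lines of arbitrary height and unlisted sites at 4 reads. Values beyond the axis are in the outermost bins and dotted lines mark 2-fold. In treated over undifferentiated cells, Sox17, Foxa2 and Sox7 lie beyond the right dotted line, Gata6 lies just inside it, and Hnf4a and Gata4 lie near the middle.

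CCAGG sites were listed more often in treated than in undifferentiated cells throughout the genome. CCTGG is the same motif read on the other strand, and its rows were not analysed. The increase is thus one of CCAGG rows alone and may not hold for both orientations of the motif. The whole lists had 268384 CCAGG sites in undifferentiated and 893046 in treated cells, and the promoters of all protein-coding genes had 24469 and 76477. At the 6 promoters, 4 and 33 CCAGG sites were listed. The increase was also seen where CCGG reads differed little, as in the Gata4 promoter, with 2 and 11 sites in undifferentiated and treated cells. Of the CCAGG sites listed in undifferentiated or untreated cells, 99.97% had the same count in both lists, against 2.04% of the CCGG sites. By the site totals in the study's text, the shared part belongs to undifferentiated cells. The CCAGG rows of the untreated list were therefore not taken as a measurement of untreated cells. The same totals, of CCAGG and CCTGG sites together, are highest in untreated, lower in treated and lowest in undifferentiated cells. By these totals, an increase over the genome was not particular to treated cells. At the 6 genes this cannot be told. The part of CCAGG sites in the CCGG result was not tested.

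Gata4 (chr14:63198922-63271692, minus strand) had promoters with a similar sum but different sites in the samples. Its promoter reads were 353 in undifferentiated, 317 in untreated and 294 in treated cells, a ratio of 1.02 for treated over undifferentiated cells (0.872 to 1.20) and of 0.774 for untreated over undifferentiated cells (0.663 to 0.904). Its 5 start sites fall into separate groups. The distal pair that begins the gene lies in CpG-poor DNA and had 251, 187 and 179 reads, and the start nearest the 3′ end had 82, 90 and 49 reads. The pair of internal starts between positions 63245248 and 63245271 lies in CpG-rich DNA, where none of the 16 motifs had low CpG content, and its reads were 20 in undifferentiated, 40 in untreated and 66 in treated cells. This group was 4.05-fold higher in treated than in undifferentiated cells (2.42 to 7.05), or 2.53-fold with unlisted sites at 4 reads, since 3 of its 5 sites were not listed in undifferentiated cells. In the other start groups, the ratios were 0.875 and 0.733.

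Single Gata4 sites changed by more than the sum. The promoter intron site at 63270434, shown above, had 90 reads in undifferentiated cells, 10 in untreated cells and fewer than 5 in treated cells. The upstream site at 63272607, 915 bp before the gene, had 29, 25 and 73 reads, so treated cells were 3.09-fold higher than undifferentiated cells (1.98 to 4.93). A neighbouring site at 63272644 had 20, 58 and 43 reads and was higher in both day 7 samples. In contrast, a 5′ UTR site at 63270982, named after its values were seen, had 35 reads in untreated cells and fewer than 5 in both other samples. Sites around the same start thus went in opposite directions.

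The Gata4 body had 1859, 2201 and 1792 reads, a ratio of 1.18 for treated over undifferentiated cells (1.11 to 1.26). Within it, the intron site at 63209950 was not listed in undifferentiated cells and had 60 reads in untreated and 51 in treated cells, at least 12.9-fold and 15.6-fold higher with 4 reads in the undifferentiated list. The intron site at 63249756 went from 76 reads to 11 in untreated cells and to fewer than 5 in treated cells, and the one at 63262428 from 58 to 7 and 10. The intron site with the most reads, at 63218306, had 113, 138 and 71 reads and passed 2-fold in no comparison. The Gata4 flank had 532, 449 and 336 reads, a ratio of 0.775 for treated over undifferentiated cells. With mapped reads this ratio became 0.479 and was called lower, as were 21.2% of the flanks of all protein-coding genes.

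Gata6 (chr18:11052064-11085635, plus strand) had more promoter sites listed after differentiation. Its promoter reads were 102 in undifferentiated, 147 in untreated and 258 in treated cells, from 7, 14 and 22 listed sites. Treated cells were 3.10-fold higher than undifferentiated cells (2.46 to 3.94) and 2.50-fold higher than untreated cells (2.03 to 3.08). With unlisted sites at 4 reads, these ratios were 1.89 and 1.999, so neither was called, although the second passed 2-fold at 2.004 with the median-ratio scaling. Its promoter ratio of treated over undifferentiated cells was at percentile 83.1 of all promoters.

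Of the 26 Gata6 promoter sites, 10 were listed only in treated cells, 7 in both day 7 samples but not in undifferentiated cells, and 4 in all samples, where 16.1%, 11.3% and 53.3% of the promoter sites of all protein-coding genes were. Those in coding sequence between 11054134 and 11055165 had at most 14 reads each. An exon site at 11055517 had fewer than 5 reads in undifferentiated cells, 18 in untreated and 23 in treated cells. The exon sites at 11055248, with 27, 24 and 22 reads, and at 11055443, with 28, 13 and 22 reads, had the most reads in undifferentiated cells and no gain on day 7. The Gata6 body (602, 582 and 440 reads) and flank (320, 479 and 365 reads) were not called, with ratios of 0.897 and 1.399 for treated over undifferentiated cells. The flank site with the most reads, at 11090086 downstream of the gene, had 59, 130 and 79 reads. Antisense gene 1010001N08Rik overlaps the upstream flank, and the reads cannot be assigned to either gene.

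Sox17 (chr1:4490931-4497354, minus strand) had the lowest promoter level of the 6 genes in undifferentiated cells and the largest promoter ratio. The reads were 11 in undifferentiated, 37 in untreated and 90 in treated cells, from 2, 4 and 9 listed sites among 18 motifs. Treated cells were 10.0-fold higher than undifferentiated cells (5.35 to 20.8) and 3.46-fold higher than untreated cells (2.34 to 5.22). With unlisted sites at 4 reads these ratios were 2.83 and 2.25, so most of the size of the first ratio depends on what the unlisted sites held. The untreated ratio of 2.90 (1.45 to 6.31) was 1.26 with unlisted sites at 4 reads and was not called. Among all promoters, the treated ratio over undifferentiated cells was at percentile 94.7.

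The Sox17 promoter intron site at 4496067, shown above, had 5 reads in undifferentiated, 6 in untreated and 27 in treated cells. Treated cells were 6.63-fold higher than undifferentiated cells here. The 5′ UTR site at 4497082 had 6, 6 and 13 reads, and the upstream site at 4497602 had fewer than 5, 5 and 10 reads. At the internal start sites near the last exon, the coding exon site at 4493200 had fewer than 5, 20 and 5 reads, the reverse of the other Sox17 promoter sites in the order of the day 7 samples.

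In the Sox17 body, none of the 14 motifs was listed in undifferentiated cells, whereas untreated cells had 29 reads at 4 sites and treated cells had 27 reads at 4 sites. Only 1 body site, at 4492562, was listed in both day 7 samples, with 11 and 6 reads, and with unlisted sites at 4 reads the treated ratio was 1.71. The Sox17 flank moved the other way, with 240, 134 and 146 reads, and it was called lower in untreated than in undifferentiated cells, at 0.482 (0.387 to 0.597). Among all genes, 2.4% of flanks were lower in this comparison. This call rested on sites beyond 5 kb of the gene, as the ratio was 0.957 with a flank of 5 kb. Among them, the distal upstream site at 4503904 had 96, 19 and 14 reads. The flank site 1021 bp before the gene, at 4498375, had 38, 54 and 62 reads. With mapped reads, the Sox17 flank was also called lower in treated than in undifferentiated cells, at 0.461, as were 21.2% of all flanks.

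Sox7 (chr14:63943673-63950732, plus strand) had a promoter that was higher in both day 7 samples. It has 1 start site, in CpG-rich DNA with a CpG ratio of 0.770 within 1 kb. Its promoter reads were 65 in undifferentiated, 135 in untreated and 174 in treated cells, from 7, 9 and 11 listed sites. Treated cells were 3.28-fold higher than undifferentiated cells (2.46 to 4.44) and were called higher, with a ratio of 2.64 when unlisted sites had 4 reads. Untreated cells were 1.79-fold higher (1.32 to 2.45), and treated over untreated cells was 1.83 (1.46 to 2.31), neither of which reached 2-fold. The treated ratio was at percentile 93.4 of all promoters. With a promoter of 3 kb on each side it was 1.59.

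Of the 11 Sox7 promoter sites, 9 were higher by at least 2-fold in treated than in undifferentiated cells. Over all CCGG sites in promoters of protein-coding genes, 31.7% were. Those with the most treated reads lay in the first intron, 446 to 558 bp after the start. They had 9, 30 and 37 reads at 63944119, 8, 25 and 23 reads at 63944158, and 6, 21 and 20 reads at 63944231. All 3 were thus higher in both day 7 samples, and their ratios of treated over untreated cells were between 1.31 and 1.75. Between them, the site at 63944196 differed, with 12, 10 and 29 reads. The neighbouring site at 63944301 went the other way, from 17 reads to 5 and 6. Upstream, the reads were 5, 11 and 14 at 815 bp before the start, 8, 13 and 15 at 521 bp, and fewer than 5, fewer than 5 and 7 at 650 bp. A pair of coding exon sites at 63943884 and 63943890 had equal counts of 10 and 9 reads on day 7 and shared fragments, so they are not separate measurements.

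The Sox7 body was the most methylated part per motif among the bodies, flanks and promoters of the 6 genes, with 1.69, 1.51 and 1.397 scaled reads per motif, and its 9 motifs were listed in every sample. It was not called in any comparison. In the flank, with 780, 915 and 589 reads, the site at 63960484 went from 119 reads to 40 in untreated and 9 in treated cells, the largest loss among the named Sox7 sites, and treated cells had 0.0928 of the undifferentiated scaled reads.

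Foxa2 (chr2:148042877-148046969, minus strand) had more reads in treated cells at most of its sites, both in the promoter and in the flank. Its promoter reads were 34 in undifferentiated, 75 in untreated and 159 in treated cells, from 3, 6 and 12 listed sites. Treated cells were 5.74-fold higher than undifferentiated cells (3.94 to 8.57) and 3.02-fold higher than untreated cells (2.28 to 4.02), and both were called, with ratios of 2.79 and 2.28 when unlisted sites had 4 reads. The ratio of untreated over undifferentiated cells was 1.90 (1.25 to 2.94), or 1.22 with unlisted sites at 4 reads, and was not called. The treated ratio over undifferentiated cells was at percentile 94.5 of all promoters.

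Of the 12 Foxa2 promoter sites, 11 were higher by at least 2-fold in treated than in undifferentiated cells and 5 were listed only in treated cells. Over all CCGG sites in promoters of protein-coding genes, 31.7% were higher in this comparison. The upstream site at 148047529, shown above, had 6, 31 and 24 reads and was therefore already higher in untreated cells. The site at 148047040, 71 bp before the gene, had fewer than 5, 5 and 18 reads. The remaining site, at 148047400, had 23, 19 and 27 reads and was the only Foxa2 promoter site with at least 10 reads in undifferentiated cells.

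The Foxa2 flank had 107 reads in undifferentiated, 130 in untreated and 325 in treated cells. Treated cells were 3.73-fold higher than undifferentiated cells (2.986 to 4.68) and 3.56-fold higher than untreated cells (2.89 to 4.39), at percentiles 98.6 and 99.5 of all flanks, of which 2.63% and 1.28% were called higher. With unlisted sites at 4 reads, the ratios were 2.42 and 2.52, and with mapped reads these fell to 1.49 and 1.94, under 2-fold. The higher reads lay on both sides of the gene. Upstream, the site at 148049940, shown above, had fewer than 5, 13 and 31 reads, and the site at 148048971 had fewer than 5 reads in both other samples and 17 in treated cells. Downstream, in the region of the long noncoding gene 9030622O22Rik, the site at 148038735 had fewer than 5, 8 and 26 reads. CCAGG sites listed in the Foxa2 flank numbered 2 in undifferentiated and 14 in treated cells, where the flanks of all protein-coding genes had 76789 and 249631, and their part in the result was not tested.

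The Foxa2 body, which was small once the promoters were taken out, had 55, 34 and 31 reads at 4 motifs and no call. Its 3′ UTR site at 148043048 had 34, 20 and 8 reads, so the end of the gene went against its start in treated cells. With mapped reads, the body was called lower in both day 7 samples, at 0.427 each. Of all bodies, 5.86% in untreated and 19.7% in treated cells were then called lower than in undifferentiated cells.

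Hnf4a (chr2:163506808-163572910, plus strand) had CpG-poor promoters that were methylated in all samples and differed little. Its promoter reads were 300 in undifferentiated, 386 in untreated and 278 in treated cells, and 11, 12 and 12 of its 12 motifs were listed. Treated over undifferentiated cells was 1.14 (0.962 to 1.34), and untreated over undifferentiated cells was 1.11 (0.952 to 1.30), so both intervals included 1. Per motif, the undifferentiated level was 0.791 scaled reads, at percentile 86.9 of all promoters, whereas Sox17 was at 23.3 and Foxa2 at 28.3.

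None of the Hnf4a start groups reached 2-fold. The first start of the gene had 147, 187 and 111 reads and the last start 71, 96 and 70 reads. The group between them had 82, 103 and 97 reads, with a ratio of 1.45 for treated over undifferentiated cells (1.07 to 1.97). The promoter site with the most scaled reads, at 163507027, had 37, 66 and 40 reads. A site at 163550022, 61 bp before the last start and named after its values were seen, had fewer than 5 reads in undifferentiated cells, 21 in untreated and 26 in treated cells, and was the only Hnf4a promoter site not listed in every sample.

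In the Hnf4a body, with 1945, 2409 and 1690 reads, the summed ratio was 1.07 for both day 7 samples over undifferentiated cells. Single sites moved much more. The intron site at 163568252, shown above, went from 68 reads to 9 and 5, the 3′ UTR site at 163571211 from fewer than 5 reads to 46 and 21, and the intron site at 163540881 from 10 reads to 30 and 55. The flank had 475, 627 and 459 reads and was not called. Hnf4aos, an antisense gene, overlaps the first promoter and part of the body, and MethylRAD reads report DNA shared by both genes.

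The region without listed sites around the gene start was shorter in treated than in undifferentiated cells at Sox17, Foxa2, Gata6 and Sox7. It was measured between the nearest listed sites on each side of the gene start. With sites of at least 10 reads, a cutoff that was added after the data had been seen, the Sox17 stretch was 9769 bp with 32 motifs in undifferentiated cells, 5175 bp with 14 motifs in untreated cells and 520 bp with 2 motifs in treated cells. The Gata6 stretch had 38, 23 and 13 motifs and the Foxa2 stretch 24, 26 and 9 motifs, while the median over all genes was 8, 7 and 7. With the listing cutoff of 5 reads, Sox17 had only 3, 2 and 0 such motifs, because sites with 5 or 6 reads lie within 2 kb of its start, and Foxa2 had 19, 9 and 9. Gata6 then had 11, 14 and 5 motifs, most in untreated cells, and the median over all genes was 6, 5 and 4, so part of the shortening was shared by all genes. With CCGG counts thinned to the CCGG total of the treated list, Foxa2 had 24, 17 and 9 motifs, Gata6 15, 21 and 5 and Sox17 3, 3 and 0, with a median over all genes of 7, 6 and 4. Sox7 had 14, 6 and 9 motifs at 10 reads but 9, 6 and 6 at 5 reads, thinned or not, so the order of its day 7 samples depends on the cutoff. Gata4 and Hnf4a had at most 1 motif in each sample. For Gata4 this is the CpG-poor distal start, and the stretch at its CpG-rich internal starts was not measured. There, the motifs between 26048 and 26650 bp after the gene start were listed in no sample.

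**Figure D3:**
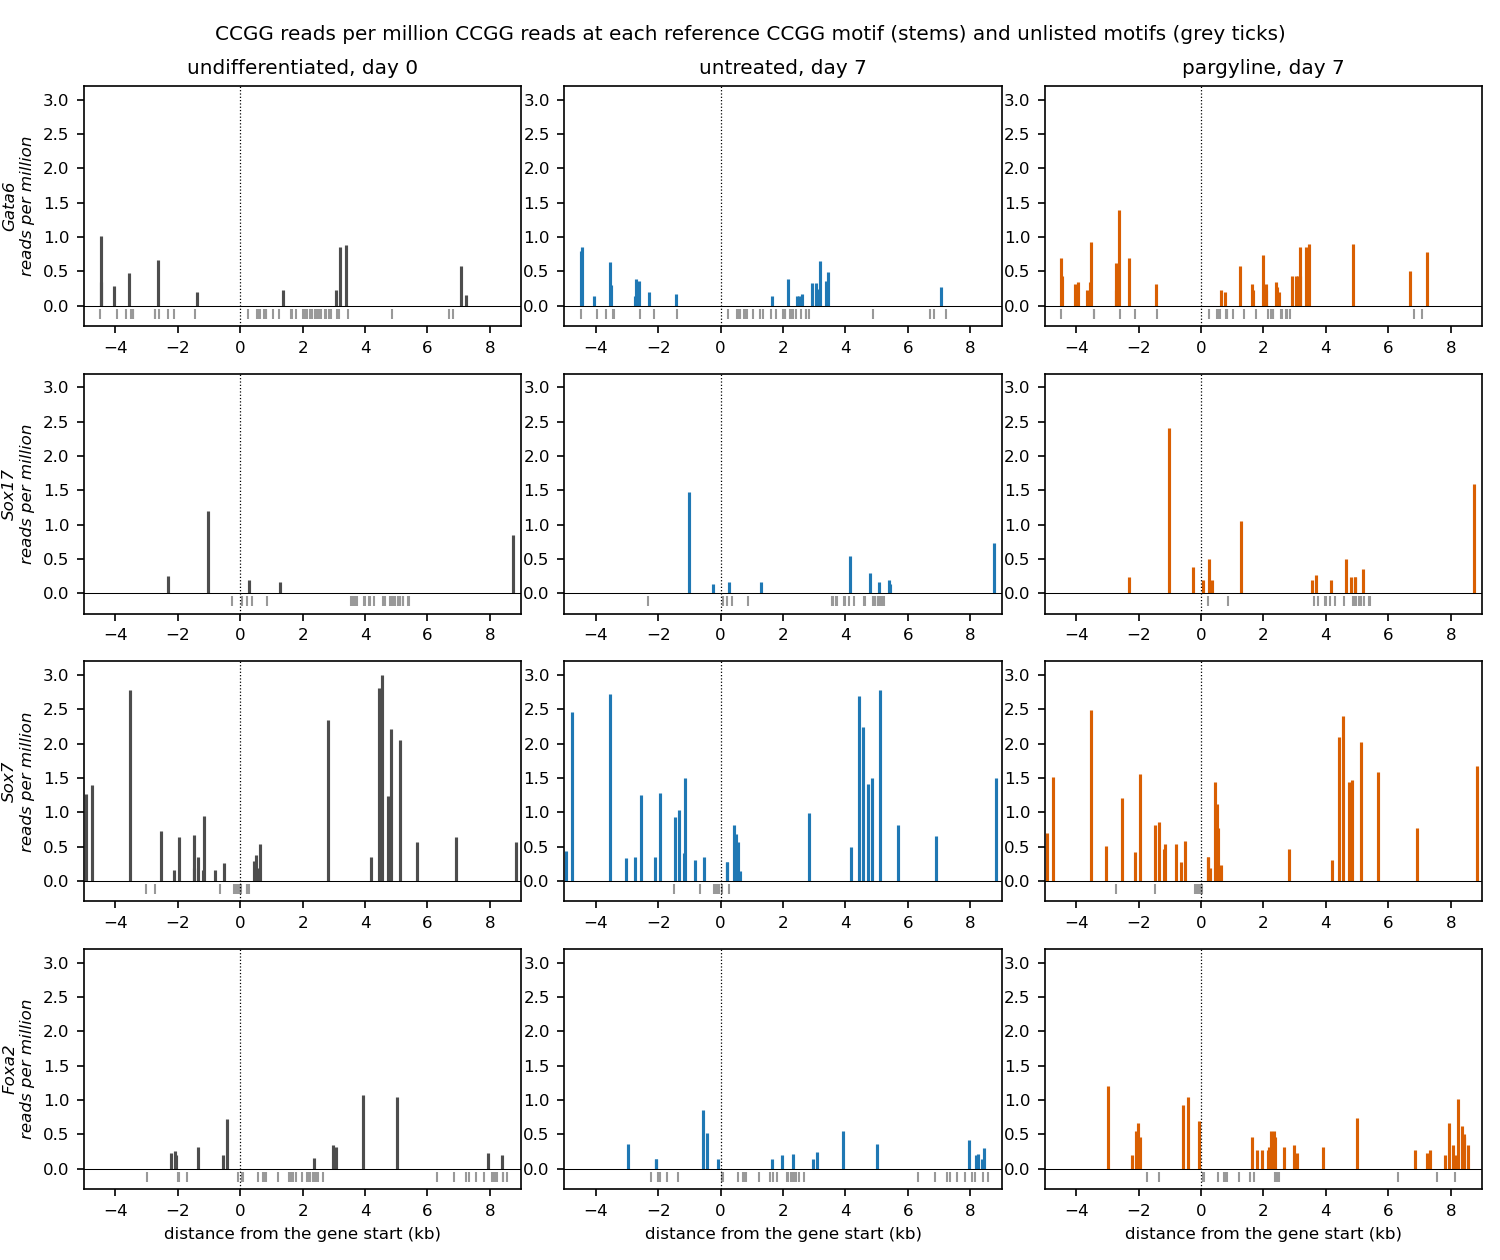
CCGG reads per 1000000 CCGG reads (stems) by distance from the gene start in kb, positive in the direction of transcription, for Gata6, Sox17, Sox7 and Foxa2 (rows) in the 3 samples (columns). Grey ticks are CCGG motifs that were not listed. Treated cells have more stems than the other samples about 2 kb on either side of the Foxa2 start and in the first 4 kb of Gata6, and the stems in the Sox7 intron are taller in both day 7 samples than in undifferentiated cells.

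Sites listed on day 7 were added mainly where the CpG content was intermediate or high. CpG content was taken from the 500 bp around each motif, with a CpG ratio over 0.75 and a GC content over 55% for high and a CpG ratio under 0.48 for low. Of the 91 motifs of the 6 genes with high CpG content, 7 were listed in undifferentiated, 18 in untreated and 30 in treated cells (7.69%, 19.8% and 33.0%), while 2.83%, 8.92% and 11.04% of all such motifs of the genome were listed. Of the 133 motifs with intermediate CpG content, 32.3%, 45.1% and 68.4% were listed, against 23.4%, 27.3% and 30.8% in the genome. Of the 260 motifs with low CpG content, 76.5%, 79.2% and 76.9% were listed, with little change, against 61.0%, 60.7% and 60.6% in the genome. Thus the gap to the genome widened most at intermediate CpG content in treated cells.

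**Figure D4:**
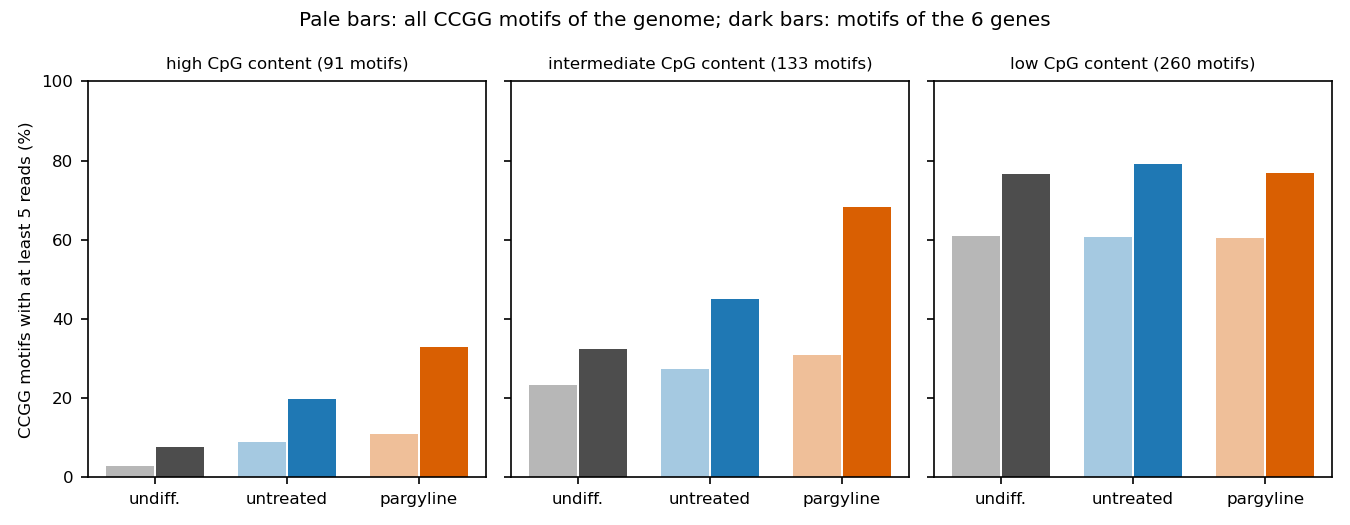
Share of reference CCGG motifs with at least 5 reads (%), by CpG content around the motif, in undifferentiated, untreated and pargyline-treated cells, for all motifs of the genome (pale bars) and for motifs of the 6 genes (dark bars). The dark bars increase from left to right at high and intermediate CpG content and stay near the same height at low CpG content.

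The same pattern was seen by gene at intermediate CpG content. Of the 37 Foxa2 motifs, 7 were listed in undifferentiated and 26 in treated cells. The numbers were 20 and 36 of the 48 Gata4 motifs, 7 and 14 of the 25 Gata6 motifs and 2 and 7 of the 13 Sox17 motifs. Sox7 differed, with 6 of 9 motifs listed in undifferentiated cells and 7 in each day 7 sample. Counted by site, 64 of the 96 intermediate sites compared (66.7%) were higher by at least 2-fold in treated than in undifferentiated cells, where 34.0% of such sites of the genome were. These counts include both sites of neighbouring pairs that can share fragments, of which the 6 genes had 20 within 32 bp. With 1 site kept of each such run, 57 of 85 intermediate sites (67.1%) were higher, against 32.8% in the genome. At high CpG content, 16 of 31 sites (51.6%) were higher, near the 47.7% of the genome. At low CpG content, 56 of 223 sites (25.1%) were higher, near the 22.4% of the genome. In untreated over undifferentiated cells, 11 of 67 intermediate sites (16.4%) were higher, near the background of 17.9%, whereas 8 of 20 sites at high CpG content (40%) were, where 20.6% of such sites of the genome were.

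Over all 85 promoter sites of the 6 genes, 35 were listed in every sample, 23 only in treated cells, 18 in both day 7 samples but not in undifferentiated cells, and 3 only in untreated cells. Of the 98216 promoter sites of all protein-coding genes, 53.3%, 16.1%, 11.3% and 7.88% were listed in these ways. In treated over undifferentiated cells, 47 of 82 promoter sites (57.3%) were higher by at least 2-fold and 6 were lower, where 31.7% and 12.3% of all promoter sites were. With 1 site kept of neighbouring ones, 44 of 77 were higher, against 30.4%. In untreated over undifferentiated cells, 14 of 62 (22.6%) were higher and 7 were lower, where 16.4% of all promoter sites were higher and as many were lower. A site that was not listed in undifferentiated cells needed only 7 reads in treated cells to count as higher but 10 in untreated cells, because the treated list had fewer CCGG reads. Of the promoter motifs of the 6 genes, 28.8%, 41.7% and 54.7% were listed, against 26.4%, 31.4% and 34.8% of the promoter motifs of all protein-coding genes. When the lists were thinned to equal CCGG reads, the promoters had 39, 48 and 78 listed sites, so treated cells had the highest number at equal CCGG totals as well, although the share of CCGG in the mapped reads still differed.

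Of 34 other endoderm genes, a fixed list of transcription factors, signalling genes, basement membrane genes and liver proteins, 28 had enough promoter reads to compare treated with undifferentiated cells. Of these, 8 were higher and 0 lower, against 14.5% of all promoters, but 4 of the 8 reached the minimum of 20 reads only through the treated list, as 1789 promoters of all genes did, of which 1314 were called higher. Among the 24 with at least 20 reads in undifferentiated cells, 4 were higher and 0 lower, where 6.54% of such promoters were higher, and the median ratio with unlisted sites at 4 reads was 1.44, where all such promoters had 1.06. The receptor gene Pdgfra had 51, 69 and 205 promoter reads, the pancreatic factor gene Pdx1 had 33, 67 and 107, and the hepatic factor gene Onecut1 had 59, 131 and 139. Otx2, Eomes, Gsc and Foxh1 were the 4 with under 20 undifferentiated reads. Otx2 had 13, 23 and 76 reads. Eomes, which acts upstream of definitive endoderm, had no listed promoter site in undifferentiated cells and 42 and 109 reads on day 7. Gsc was listed only in treated cells, with 22 reads. Foxh1, a partner of SMAD proteins, had 40 and 24 reads on day 7 after none listed before, and it was the only gene of the list that was higher in untreated than in undifferentiated cells, where 28 were compared and 5.54% of all promoters were higher. In gene bodies, 2 of 31 were higher and 1 lower in treated over undifferentiated cells, against 3.81% and 3.03% of all bodies. Of the 34 flanks, 0 were called in this comparison, against 2.63% higher and 2.27% lower among all flanks.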

How the data were processed

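Genomic DNA was cut with FspEI, fragments near 30 bp were taken from a gel, and 1 library each of undifferentiated, untreated and treated cells was sequenced. The authors trimmed the reads, kept those with an FspEI site, mapped them with Bowtie2 2.3.3 to GRCm38 and kept reads that mapped once with at most 1 mismatch. The authors deposited the count of reads at every CCGG, CCAGG and CCTGG site with at least 5 reads, without normalization, and an RPM value, which is the count per 1000000 mapped reads.

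Only CCGG rows were compared, because the CCAGG rows of the undifferentiated and untreated lists were identical at these genes and at nearly all other sites, and those of the untreated list were not used as its measurement. Counts were scaled to the CCGG reads of each list (median 26, 30 and 23 reads per site). Genes, start sites and printed windows came from GENCODE M21 and GRCm38, and 97.4% of the listed CCGG sites lay at a motif of the reference. Gata6 windows are not printed. Intervals were exact (Clopper-Pearson, conditional on the sum, for ratios of counts). The genes, lists and rules were chosen with earlier results of these data known. Named sites were, per gene, up to 5 promoter sites with the most scaled reads, the body or flank site with the most, and those with the largest ratio up and down among sites with at least 20 reads in a compared list. All other sites were chosen after their values were seen. Calls and intervals were tested on simulated data. The software was matplotlib 3.10.9, SciPy 1.17.1, pandas 2.3.3 and numpy 2.4.6 under Python 3.11.15. The 11 alternatives changed the scaling, unlisted sites, cutoff, depth, promoter or flank limits, transcripts or motif rows. Enhancers and CCTGG rows were not analysed here. The values of 1 of the other endoderm genes are not reported here.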

Additional observations from a re-analysis of the deposited data

Results flagged for a closer look

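CCAGG sites, which the comparisons above leave out, were listed more often in treated than in undifferentiated cells at the 6 genes, as they were over the genome. The rows of CCTGG, the same motif on the other strand, were not analysed, so the increase may not hold for both orientations. In promoters, 33 CCAGG sites with 353 reads were listed in treated cells, against 4 sites with 30 reads in undifferentiated cells, which is 8.25 times as many sites, where the promoters of all protein-coding genes had 3.13 times as many. In gene bodies there were 141 sites with 2020 reads against 40 sites with 718 reads, and in flanks 77 sites with 830 reads against 19 sites with 309 reads, which is 3.53 and 4.05 times as many sites, where all bodies had 3.17 and all flanks 3.25 times as many. The untreated list had the same numbers as the undifferentiated list in each part of each gene, and over the genome 99.97% of the CCAGG sites listed in either had the same count in both. By the site totals in the study's text, these rows belong to undifferentiated cells, so untreated cells have no CCAGG value here. Those totals, of CCAGG and CCTGG sites together, are highest in untreated cells, so over the genome an increase was not particular to treated cells. Whether it was at the 6 genes cannot be told. The higher number of CCAGG sites was seen in promoters of every one of the 6 genes, from 1 site in undifferentiated to 7 in treated cells at Hnf4a, whose CCGG promoter ratio was 1.14, and from 0 to 2 at Sox17, whose CCGG promoter ratio was 10.0.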

How the results depend on the processing

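With 1 library per condition, the summed values moved with the scaling, unlisted sites, the read cutoff, the promoter and flank limits and the transcripts. With the deposited RPM values, the ratios of untreated over undifferentiated, treated over undifferentiated and treated over untreated cells were, in this order, 0.877, 1.10 and 1.25 in promoters, 0.805, 0.660 and 0.820 in bodies and 0.770, 0.686 and 0.890 in flanks. Median-ratio scaling gave body ratios of 0.952 and 1.02 for the first pair, and unlisted sites at 4 reads gave promoter ratios of 0.995 and 1.51. A cutoff of 10 reads left 26, 39 and 50 listed promoter sites in undifferentiated, untreated and treated cells. Promoters of 3 kb held 79, 107 and 136 sites, with body ratios of 1.009 (treated over undifferentiated) and 1.009 (treated over untreated) and a flank ratio of 1.006 (treated over undifferentiated). Promoters limited to 1 kb upstream gave 1.32, 2.43 and 1.83, with 13, 22 and 34 sites, and a body ratio of 1.11 for treated over untreated cells. Basic transcripts gave 1.35, 2.46 and 1.82, with 20, 27 and 36 sites, and flanks of 5 kb gave 1.10, 1.38 and 1.26. The causes were not tested. Leaving out sites above 10000 reads, thinning to 25767119 reads and reference motifs alone moved none of these summed values beyond their intervals. The treated promoter sum was the highest under each alternative tried. A cutoff of 10 reads and thinning for the stretch at the gene start were added after the data had been seen. No paired analysis was possible because each group had 1 library. At a CCGG site with the median of 23 to 30 reads, counting error alone hides small changes.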
